A study of Rattus norvegicus with 20 samples.

Results

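The genes described here are the enzymes of glucuronidation and Dnajb3, a gene that lies inside the locus of one of their families. Every probe set (a group of short probes that together read one transcript) whose symbol on the array platform begins with Ugt1 or Ugt2 was taken, and the probe sets of Ugdh, Ugp2 and Dnajb3 were added. This gave 14 of 31042 probe sets that are not array controls. Of these, 12 carry a single symbol and read 11 genes, and the other 2 are shared by the Ugt1a genes and carry 8 Ugt1a symbols each. The rule uses names only, and no expression value, but it was set with earlier results of these data known.

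Liver RNA came from Wistar Han rats, a laboratory stock, and was hybridised to Affymetrix rat expression arrays. Dams were given corn oil alone (vehicle) or corn oil with PBDE-47, a tetrabrominated diphenyl ether flame retardant, by oral gavage. Dosing started on gestation day 6 and ended on postnatal day 4, when the liver was taken. The liver is treated here as that of the neonatal pups and not of the dams. The fetal liver marker Afp read between 14.21 and 14.34 on all arrays. The daily doses were 0.1, 15 and 50 mg/kg. Each of the 4 groups has 5 arrays, which makes 20. The labels do not say whether the 5 arrays of a group come from separate litters, so the p-values measure the spread among these arrays.

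UDP-glucuronosyltransferases (UGTs) sit in the membrane of the endoplasmic reticulum and join glucuronic acid to bilirubin, steroid and thyroid hormones, drugs and pollutants, which are then carried out into bile or blood. Ugp2 makes UDP-glucose and Ugdh oxidises it to UDP-glucuronate, the sugar donor of the reaction. The Ugt1a genes of a mammal share one locus with alternative first exons and common last exons, while Ugt2b genes are separate genes in a cluster. Dnajb3 encodes a member of the DnaJ (Hsp40) family of co-chaperones.

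All values are log2 expression from RMA, a method that corrects background, normalizes and summarises the probes of each set. A difference of 1 on this scale is a change by a factor of 2. Values range from 2.14 to 14.82 over the table, and values between about 2 and 4 lie near background. Differences among the brightest probe sets may be flattened, so levels were not compared between probe sets. A change was called where limma's moderated test gave a Benjamini-Hochberg adjusted p under 0.05 over all 31042 probe sets. Array medians lay between 5.605 and 5.648. The hepatocyte markers measured (9 of 10, among them Alb and Ttr) had a mean between 13.50 and 13.66 on every array, and the fetal liver markers (5 of 5, among them Afp and H19) between 11.24 and 11.83. The arrays differed in signal of other tissues: the mean of the skeletal muscle markers (9 of 10 measured) lay between 4.05 and 9.89, that of exocrine pancreas markers (9 of 10) between 4.71 and 7.44, and 10 arrays stood over 2 log2 units above the lowest array in one of these lists (1 of vehicle, 4 at 0.1, 2 at 15 and 3 at 50 mg/kg). Kupffer cell (liver macrophage) markers, 8 of 10 measured, had a mean between 9.57 and 9.76 with vehicle, 9.29 and 9.76 at 0.1, 9.39 and 9.68 at 15, and 8.97 and 9.38 at 50 mg/kg, where all arrays lay below the vehicle arrays; in bulk RNA, fewer cells of a type and less RNA per cell cannot be told apart. The labels give the sex as female, and it is unclear whether this refers to the dam or the pups. The 2 Y-linked genes measured, Eif2s3y and Uty, read between 8.65 and 9.48 on all arrays. The part of these values in the results below was not tested, beyond the fits without the 10 arrays and those with muscle and pancreas marker means as covariates.

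At 50 mg/kg, Dnajb3 and 6 UGT probe sets rose, and no member fell. The largest changes were those of Dnajb3 (3.71-fold) and Ugt2b10 (2.95-fold), followed by Ugt2b1 (1.74-fold), Ugt2b15 (1.64-fold) and Ugt2a1 (1.63-fold). Ugt2b35 and one of the shared Ugt1a probe sets rose by less than 1.3-fold. Ugdh and Ugp2, which make the sugar donor, did not pass the test. Over all probe sets, 0.586% were called higher at this dose and 0.348% lower in the same limma fit. The median change of the 14 members was 0.35, beside 0.01 for all probe sets, and 13 of the 14 changes were above 0. In 7 members the values at 50 mg/kg did not overlap those of vehicle and were higher, which 1.78% of all probe sets showed. The count of 7 called members was 4 without 50 mg/kg replicate 4, 4 with only the vehicle and 50 mg/kg arrays in the fit, and 0 without the 10 arrays high in muscle or pancreas markers.

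At 15 mg/kg, Ugt2b10, Ugt2b1 and Ugt2b15 rose, where 0.0934% of all probe sets were called higher. The median change of the members was 0.34 beside 0.01 for all probe sets, and 12 changes were above 0. In 5 members (Ugt2b10, Ugt2b1, Ugt2b15, Ugt2a1 and Ugt2b35) all arrays at 15 mg/kg lay above all vehicle arrays, which 1.57% of all probe sets showed. At 0.1 mg/kg limma called no member and 0 of 31042 probe sets; at an unadjusted p under 0.05 there were 2 members and 2134 probe sets. The members' median change was there -0.05, and 2 of 14 changes were above 0.

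**Figure D1:**
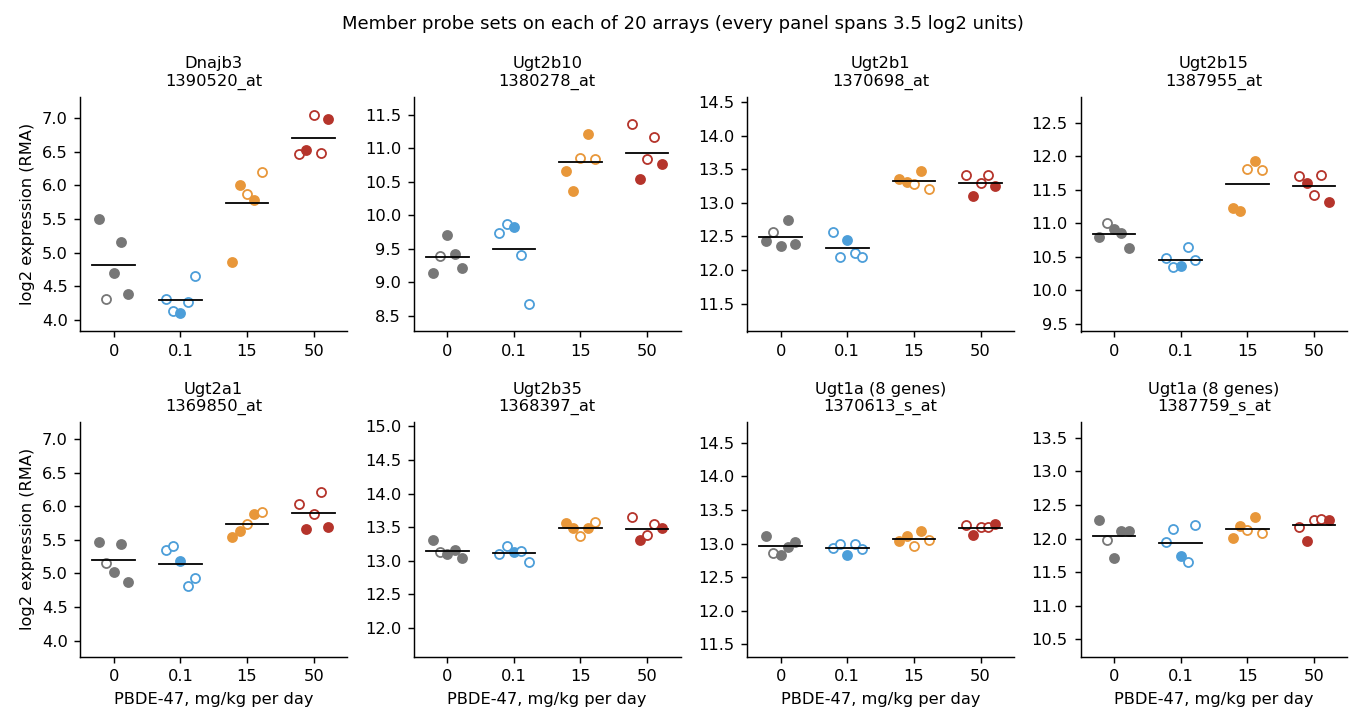
Log2 RMA expression (vertical axis) of 8 member probe sets on each of 20 arrays, by dose of PBDE-47 (horizontal axis, 0 is vehicle); every panel spans the same 3.5 log2 units, lines are group means, and open circles are arrays with high skeletal muscle or pancreas markers. All Dnajb3 arrays at 50 mg/kg lie above those at 15 mg/kg, a step that did not pass (limma adjusted p = 0.655). The share of all probe sets that separate in this way was not counted. Ugt2b10, Ugt2b1 and Ugt2b15 stand at similar values at both doses.

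Dnajb3 (probe set 1390520_at) had the largest change of the members. Its values were 5.51, 4.30, 4.69, 5.16 and 4.38 on the vehicle arrays (mean 4.81 ± 0.51, SD, n = 5). They were 4.31, 4.12, 4.10, 4.26 and 4.65 at 0.1 mg/kg (4.29 ± 0.22), where the arrays overlapped the lower vehicle arrays. At 15 mg/kg they were 4.85, 6.00, 5.88, 5.78 and 6.20 (5.74 ± 0.52), with replicate 1 inside the vehicle range and the other 4 above it. At 50 mg/kg they were 6.47, 6.52, 7.04, 6.48 and 6.99 (6.70 ± 0.29), and all 5 lay above every array of the other 3 groups.

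The change of Dnajb3 was 1.89 at 50 mg/kg (SE 0.24, 95% interval 1.40 to 2.39, limma adjusted p = 0.000213). At 15 mg/kg it was 0.93 (adjusted p = 0.133) and at 0.1 mg/kg -0.52 (unadjusted p = 0.0398, adjusted p = 0.708 in limma), and neither passed. Against the 0.1 mg/kg arrays, Dnajb3 was higher by 2.41 at 50 mg/kg (limma adjusted p = 9.67e-06) and by 1.45 at 15 mg/kg (limma adjusted p = 0.00954). Array-wide, 0.583% and 0.087% of probe sets were called higher in those comparisons. The step from 15 to 50 mg/kg was 0.96 (95% interval 0.47 to 1.45, limma adjusted p = 0.655). No probe set was called in that comparison, where limma gave 1749 of 31042, 2 of them members, at an unadjusted p under 0.05. Dnajb3 was the single member with all arrays at 50 above all arrays at 15 mg/kg. The share of all probe sets that do so was not counted, so how unusual this is cannot be told.

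The Dnajb3 call at 50 mg/kg held with each of the 10 vehicle and 50 mg/kg arrays left out in turn. With muscle and pancreas marker means as covariates, the change of Dnajb3 was 1.89 and passed (limma adjusted p = 0.000628). Without the 10 arrays high in muscle or pancreas markers, which leaves 2 arrays at 50 mg/kg, its change was 1.82 and did not pass (limma adjusted p = 0.222); in that fit 3 probe sets were called in all.

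By RefSeq (rat assembly GRCr8), Dnajb3 lies on chromosome 9 inside the Ugt1a locus. Its start is 5339 bases past the start of Ugt1a2 and 4785 bases before that of Ugt1a1, and it is transcribed in the direction opposite to the Ugt1a genes. Whether its probe set reads one strand only is not given in the sources used here. Of 19 gene identifiers behind the members, 17 matched a RefSeq promoter, and Ugt1a5 and Ugt2a1 had no entry. The 250 bases before the start of Dnajb3 (chr9:96244359-96244608, minus strand) and of its neighbour Ugt1a1 (chr9:96248893-96249142, plus strand), the gene of the enzyme that conjugates bilirubin, are shown because the starts are adjacent. Ugt1a1 has no probe set of its own among the members. Capitals mark every match to a motif searched.
Dnajb3: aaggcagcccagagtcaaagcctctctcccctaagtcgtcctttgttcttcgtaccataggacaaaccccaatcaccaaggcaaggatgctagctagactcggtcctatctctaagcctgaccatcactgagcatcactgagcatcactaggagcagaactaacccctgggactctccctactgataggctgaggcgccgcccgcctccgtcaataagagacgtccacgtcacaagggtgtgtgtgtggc
Ugt1a1: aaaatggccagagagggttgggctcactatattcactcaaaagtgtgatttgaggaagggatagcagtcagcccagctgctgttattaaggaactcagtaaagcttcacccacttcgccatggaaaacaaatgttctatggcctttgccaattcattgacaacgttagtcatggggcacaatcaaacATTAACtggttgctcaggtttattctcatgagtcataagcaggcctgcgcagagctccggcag

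Motifs were searched on both strands. For nuclear receptors the single site AGGTCA was used, with its relatives AGTTCA, which differs inside the site, and GGGTCA. The others were GCGTG (the core bound by the aryl hydrocarbon receptor), TGACNNNGC (the core of an antioxidant response element), GTTAAT (a single site of Hnf1) and TATAAA (a core promoter box). Some of these can overlap, as GCGTG and TGACNNNGC do in Ugdh. The Dnajb3 window held none of them. The Ugt1a1 window held GTTAAT on the minus strand, 63 to 58 bases before the start, as did 4 of the 17 member promoters (Ugt1a6, Ugt1a3, Ugt1a2 and Ugt1a1) and 6.45% of 33469 promoters of the same length. GCGTG stood in 7 of 17 member promoters and 25.9% of all. A match is a description of letters and not a site that was shown to be bound.

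**Figure D2:**
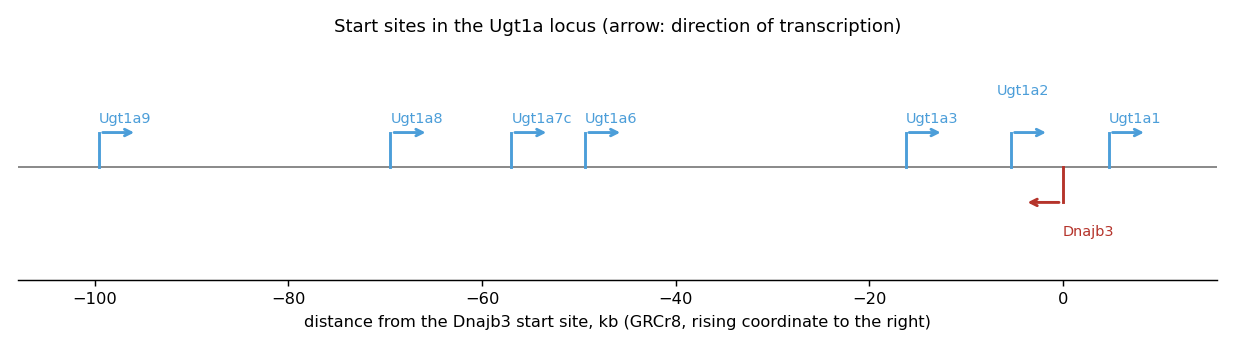
Start sites of the Ugt1a genes (blue) and Dnajb3 (red) by distance from the Dnajb3 start in kb along GRCr8 chromosome 9; arrows show the direction of transcription. Dnajb3 lies between Ugt1a2 (5.3 kb) and Ugt1a1 (4.8 kb) on the opposite strand, and Ugt1a9 starts 99.6 kb away.

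The 2 shared Ugt1a probe sets changed far less than Dnajb3. Probe set 1370613_s_at read 13.11, 12.86, 12.83, 12.95 and 13.03 with vehicle and 12.93, 12.99, 12.83, 13.00 and 12.93 at 0.1 mg/kg. It read 13.04, 13.12, 12.97, 13.19 and 13.05 at 15 mg/kg and 13.27, 13.13, 13.25, 13.25 and 13.29 at 50 mg/kg. All arrays at 50 mg/kg lay above all vehicle arrays, replicate 2 by little. The change at 50 mg/kg was 0.28 (SE 0.06, 1.22-fold, limma adjusted p = 0.0373), and at 15 mg/kg 0.12 (limma adjusted p = 0.468).

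The call on this Ugt1a probe set ended in limma fits without any 1 of 7 arrays (vehicle replicates 2, 3 and 4, and 50 mg/kg replicates 1, 3, 4 and 5), with changes between 0.25 and 0.32 over all 10 such fits and a highest adjusted p of 0.0976. It also ended with only the 2 groups compared, and with muscle and pancreas marker means as covariates, at 0.29 (limma adjusted p = 0.0569).

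The other shared probe set, 1387759_s_at, read 12.28, 11.98, 11.70, 12.12 and 12.12 with vehicle and 11.95, 12.14, 11.74, 11.65 and 12.20 at 0.1 mg/kg. It read 12.00, 12.19, 12.13, 12.32 and 12.09 at 15 mg/kg and 12.17, 11.96, 12.28, 12.29 and 12.28 at 50 mg/kg. The groups overlapped, and the change at 50 mg/kg was 0.16 (95% interval -0.08 to 0.39, limma adjusted p = 0.609). Neither probe set separates the 8 Ugt1a first exons, so a change of a single Ugt1a transcript cannot be read from them. Of the 10 nearest measured genes around the Ugt1a locus, 5 on each side, limma called none at 50 mg/kg, with changes between -0.21 and 0.25. Array-wide, 0.586% of probe sets were called higher and 0.348% lower, so this count is near those shares. Around the Ugt2b genes, 9 of 10 neighbours had changes above 0 and 1 was called, Ugt2a1, itself a member. The largest change there, 0.93 for Sult1b1, did not pass (limma adjusted p = 0.248).

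Among the Ugt2 family, 5 of 9 probe sets rose at 50 mg/kg and 3 at 15 mg/kg, where 0.586% and 0.0934% of all probe sets were called higher. The median changes were 0.64 and 0.37, beside 0.01 for all probe sets at either dose. All 9 changes were above 0 at both doses, and the share of all probe sets above 0 was not counted. Ugt2b10 (1380278_at) read 9.13, 9.39, 9.71, 9.42 and 9.21 with vehicle (mean 9.37 ± 0.22, SD, n = 5). It read 9.73, 9.86, 9.83, 9.40 and 8.67 at 0.1 mg/kg, where 3 of 5 arrays lay just above the vehicle range and 1 below it. The values were 10.66, 10.36, 10.86, 11.21 and 10.84 at 15 mg/kg (10.79 ± 0.31) and 11.36, 10.53, 10.84, 11.16 and 10.77 at 50 mg/kg (10.93 ± 0.33). Both upper doses lay wholly above vehicle and 0.1 mg/kg, and overlapped each other.

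The change of Ugt2b10 was 1.56 at 50 mg/kg (SE 0.20, 2.95-fold, limma adjusted p = 0.000371) and 1.41 at 15 mg/kg (SE 0.20, 2.66-fold, limma adjusted p = 0.00382). At 0.1 mg/kg it was 0.13 (limma adjusted p = 0.947). From 15 to 50 mg/kg it moved by 0.15, with a 95% interval of -0.28 to 0.57.

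Ugt2b1 (1370698_at), known as inducible by phenobarbital in rat liver, read 12.43, 12.57, 12.35, 12.74 and 12.38 with vehicle (12.49 ± 0.16, SD, n = 5) and 12.57, 12.19, 12.45, 12.26 and 12.20 at 0.1 mg/kg. It read 13.36, 13.31, 13.28, 13.48 and 13.21 at 15 mg/kg (13.33 ± 0.10) and 13.41, 13.10, 13.30, 13.41 and 13.25 at 50 mg/kg (13.29 ± 0.13). Both upper doses again lay wholly above the other 2 groups. The changes were 0.80 at 50 mg/kg (SE 0.09, limma adjusted p = 7.3e-05), 0.83 at 15 mg/kg (1.78-fold, limma adjusted p = 0.000108) and -0.16 at 0.1 mg/kg. The step from 15 to 50 mg/kg was -0.03 (95% interval -0.22 to 0.16).

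Ugt2b15 (1387955_at) read 10.80, 11.01, 10.91, 10.85 and 10.64 with vehicle (10.84 ± 0.14, SD, n = 5), 11.22, 11.18, 11.81, 11.92 and 11.79 at 15 mg/kg (11.59 ± 0.36), and 11.70, 11.60, 11.42, 11.73 and 11.32 at 50 mg/kg (11.55 ± 0.18). At 0.1 mg/kg it read 10.48, 10.35, 10.36, 10.65 and 10.45 (10.46 ± 0.12), with 4 of 5 arrays below the vehicle range. The changes were 0.71 at 50 mg/kg (SE 0.13, limma adjusted p = 0.011), 0.74 at 15 mg/kg (limma adjusted p = 0.0212) and -0.38 at 0.1 mg/kg (unadjusted p = 0.00827, limma adjusted p = 0.586), and the last did not pass. Against the 0.1 mg/kg arrays the changes were 1.09 at 50 mg/kg (limma adjusted p = 0.000121) and 1.13 at 15 mg/kg (limma adjusted p = 0.000242).

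Calls on Ugt2b10 and Ugt2b1 at both upper doses, and on Ugt2b15 at 50 mg/kg, held with each array of the 2 groups left out in turn. These calls also held with marker covariates, with a highest limma adjusted p of 0.0343 for Ugt2b10 at 15 mg/kg. The call on Ugt2b15 at 15 mg/kg ended without any 1 of 7 arrays (vehicle replicates 1, 3, 4 and 5, and 15 mg/kg replicates 3, 4 and 5), with changes between 0.66 and 0.85 and a highest limma adjusted p of 0.0827. It also ended with only the 2 groups compared, with no variance shrinkage, with array weights and with marker covariates (0.67, limma adjusted p = 0.066), and so held in 6 of 11 other settings. Without the 10 arrays high in muscle or pancreas markers the changes at 50 and 15 mg/kg were 1.28 and 1.37 for Ugt2b10, 0.70 and 0.91 for Ugt2b1, and 0.66 and 0.64 for Ugt2b15, and none passed.

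These 3 genes were called at both 15 and 50 mg/kg, Ugt2b15 at 15 mg/kg with the limits above, and their promoters (RefSeq, GRCr8 chromosome 14, all on the plus strand) are shown with that of Ugt2b7, whose probe set stayed near background. They lie at chr14:21462591-21462840 for Ugt2b10, chr14:21378632-21378881 for Ugt2b1, chr14:21122616-21122865 for Ugt2b15 and chr14:21251285-21251534 for Ugt2b7. Capitals mark motif matches as above.
Ugt2b10: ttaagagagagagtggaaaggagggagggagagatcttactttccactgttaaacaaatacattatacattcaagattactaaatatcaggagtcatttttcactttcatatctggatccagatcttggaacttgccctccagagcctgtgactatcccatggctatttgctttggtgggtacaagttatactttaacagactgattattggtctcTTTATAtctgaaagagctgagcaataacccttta
Ugt2b1: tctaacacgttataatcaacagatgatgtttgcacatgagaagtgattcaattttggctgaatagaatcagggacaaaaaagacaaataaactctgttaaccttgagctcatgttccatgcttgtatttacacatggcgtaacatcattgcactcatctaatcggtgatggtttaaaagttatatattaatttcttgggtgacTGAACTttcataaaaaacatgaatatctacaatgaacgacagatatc
Ugt2b15: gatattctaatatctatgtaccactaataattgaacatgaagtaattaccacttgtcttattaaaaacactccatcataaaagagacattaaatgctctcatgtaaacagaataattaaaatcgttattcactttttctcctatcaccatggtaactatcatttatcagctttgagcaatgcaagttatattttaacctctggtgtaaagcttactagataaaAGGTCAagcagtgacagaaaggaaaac
Ugt2b7: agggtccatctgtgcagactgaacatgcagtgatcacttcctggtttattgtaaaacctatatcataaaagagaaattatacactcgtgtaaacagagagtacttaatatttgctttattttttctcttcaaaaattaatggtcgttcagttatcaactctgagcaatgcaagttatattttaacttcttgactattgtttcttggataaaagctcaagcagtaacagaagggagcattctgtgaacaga

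The promoters of the 3 genes that rose shared no exact match to a motif of the search. Inexact matches, such as variants of GTTAAT, were not counted, so a shared element of that kind would be missed. Ugt2b15 held AGGTCA 27 to 22 bases before its start (14.1% of all promoters hold it), Ugt2b1 held AGTTCA on the minus strand 47 to 42 bases before (12.2%), and Ugt2b10 held TATAAA on the minus strand 34 to 29 bases before (12.9%). Paired nuclear receptor sites (direct repeats with spacers of 3, 4 or 5 bases, everted repeats with 6 or 8) stood in 0 of 17 member promoters. Each was rare everywhere, in at most 0.0568% of the 33469 promoters. Over the 136 pairs of member promoters, identity ranged from 40.0% to 67.2% (median 49.2%), and the closest pair was Ugt2b15 and Ugt2b7.

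Ugt2a1 (1369850_at), a UGT known from the olfactory epithelium, read 5.47, 5.16, 5.03, 5.43 and 4.87 with vehicle and 5.35, 5.41, 5.19, 4.81 and 4.94 at 0.1 mg/kg. It read 5.54, 5.63, 5.73, 5.89 and 5.91 at 15 mg/kg and 6.03, 5.66, 5.89, 6.21 and 5.69 at 50 mg/kg. Both upper doses lay above all vehicle arrays. The change was 0.70 at 50 mg/kg (SE 0.14, limma adjusted p = 0.0171), and at 15 mg/kg it was 0.55 and did not pass (limma adjusted p = 0.128). Without 50 mg/kg replicate 4 the call at 50 mg/kg ended, at 0.63 (limma adjusted p = 0.0594), and it also ended with only the 2 groups compared.

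Ugt2b35 (1368397_at) read 13.31, 13.13, 13.10, 13.15 and 13.03 with vehicle and 13.10, 13.22, 13.14, 13.15 and 12.98 at 0.1 mg/kg. It read 13.56, 13.48, 13.37, 13.49 and 13.57 at 15 mg/kg and 13.65, 13.30, 13.39, 13.55 and 13.49 at 50 mg/kg. All arrays at 15 mg/kg and 4 of 5 at 50 mg/kg lay above the vehicle range. The change was 0.33 at 50 mg/kg (SE 0.07, limma adjusted p = 0.0311) and 0.35 at 15 mg/kg (limma adjusted p = 0.0623), so the dose with the call was not the dose with the larger change. The call ended without any 1 of 7 arrays (vehicle replicates 2, 3, 4 and 5, and 50 mg/kg replicates 1, 4 and 5), with changes between 0.28 and 0.37 and a highest limma adjusted p of 0.0976, and with only the 2 groups compared.

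The other 4 Ugt2b probe sets were not called against vehicle. Ugt2b34l1 (1381852_at) read between 7.99 and 8.80 with vehicle and between 8.51 and 9.07 at 50 mg/kg, a change of 0.64 (95% interval 0.32 to 0.97, limma adjusted p = 0.0519). Probe set 1387825_at of Ugt2b read between 3.13 and 3.39 with vehicle and between 3.56 and 3.83 at 50 mg/kg, without overlap but near background, a change of 0.37 (limma adjusted p = 0.134). The other Ugt2b probe set, 1385247_at, read between 2.27 and 2.71 over the 20 arrays and differed by 0.03 at 50 mg/kg. Ugt2b7 (1370615_at) read between 3.72 and 4.28, with differences of 0.04 at 50 and 0.19 at 15 mg/kg. Genes of the Ugt2b cluster are similar in sequence, and which transcripts each probe set binds was not examined here, so values of single Ugt2b genes may hold signal of a relative.

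**Figure D3:**
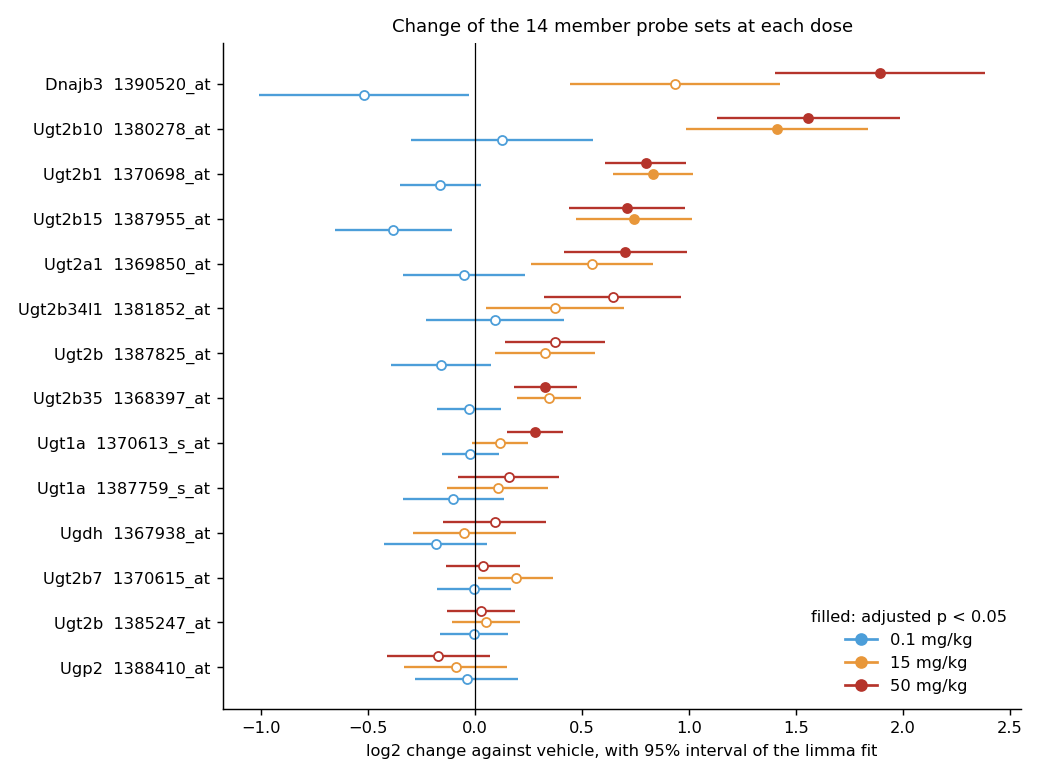
Change against vehicle of each of the 14 member probe sets at 0.1 (blue), 15 (orange) and 50 mg/kg (red) on the log2 scale, with 95% intervals from limma; filled points passed the adjusted threshold. Filled points are 7 at 50 mg/kg, 3 at 15 mg/kg and 0 at 0.1 mg/kg, and Dnajb3 shows the widest gap between 15 and 50 mg/kg.

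Among the members, Ugdh and Ugp2, which supply the sugar donor, did not pass the test at any dose. Ugdh (1367938_at) read between 9.06 and 9.83 over all arrays, with overlapping groups and a change of 0.09 at 50 mg/kg (95% interval -0.15 to 0.33, limma adjusted p = 0.807). Ugp2 (1388410_at) read between 11.40 and 12.12, with a change of -0.17 (95% interval -0.41 to 0.07, limma adjusted p = 0.573). The intervals leave room for changes of up to 0.33 upward for Ugdh and 0.41 downward for Ugp2.

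Taking the dose order as one line (vehicle, 0.1, 15 and 50 mg/kg at equal steps), 9 members had a slope above 0 that passed in limma, where 0.96% of all probe sets did. They were the 7 called at 50 mg/kg together with Ugt2b34l1 (0.22 per step, limma adjusted p = 0.025) and Ugt2b probe set 1387825_at (0.16 per step, limma adjusted p = 0.025). These last calls ended without any 1 of 8 arrays for Ugt2b34l1 (all vehicle and 50 mg/kg arrays but vehicle replicate 4 and 50 mg/kg replicate 2, highest limma adjusted p 0.0745) and of 4 arrays for Ugt2b (vehicle replicates 1 and 4, and 50 mg/kg replicates 3 and 5, highest limma adjusted p 0.0616). The slope of Dnajb3 was 0.71 per step (limma adjusted p = 1.39e-05). Against the 0.1 mg/kg arrays in place of vehicle, 8 members were called higher at 50 mg/kg (0.583% of all probe sets) and 5 at 15 mg/kg (0.087%). With one array left out, the call at 50 mg/kg ended in 7 of 10 fits for Ugt1a probe set 1370613_s_at, 8 for Ugt2b probe set 1387825_at and 4 for Ugt2b35, and that at 15 mg/kg in 8 for Ugt2b35 (limma adjusted p up to 0.183). These comparisons share the dosed arrays with those against vehicle.

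Whether the members changed by unequal amounts was tested within arrays, on the difference between pairs of probe sets, with an exact two-sided permutation test of 5 against 5 arrays (smallest possible p 0.00794) and Benjamini-Hochberg adjustment over the 10 pairs of Dnajb3, Ugt2b10, Ugt2b1, Ugt2b15 and Ugt1a probe set 1370613_s_at. The probe sets of these pairs were chosen with earlier results of these data known. From vehicle to 50 mg/kg, 8 of 10 pairs differed. Dnajb3 moved by 1.61 more than Ugt1a and by 1.18 more than Ugt2b15 (exact permutation, adjusted p = 0.0132 for both), and by 1.09 more than Ugt2b1 (exact permutation, adjusted p = 0.034). The difference between Dnajb3 and Ugt2b10 was 0.33 (exact permutation, adjusted p = 0.388). Ugt2b10 moved by 0.85 more than Ugt2b15 (exact permutation, adjusted p = 0.0132), while Ugt2b1 and Ugt2b15 differed by 0.09 (exact permutation, adjusted p = 0.421). The difference between Dnajb3 and Ugt2b1 no longer passed without any 1 of 7 arrays (vehicle replicates 2 to 5, and 50 mg/kg replicates 2, 3 and 5, at 0.95 to 1.12), nor that between Ugt1a and Ugt2b15, -0.43, without any 1 of 7 (vehicle replicates 1, 4 and 5, and 50 mg/kg replicates 1 to 4, at -0.46 to -0.36). Ugt1a and Ugt2b1 lie near the top of the scale, where differences may be flattened, which was not tested. Dnajb3 is dim, with a vehicle mean of 4.81, while the lowest array median was 5.605. Such tests show unequal change of the readings only.

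The same test from 15 to 50 mg/kg was chosen after the values had been seen, so its p-values are a description and not support. Here 2 of 10 pairs differed. Dnajb3 moved by 0.99 more than Ugt2b1 and by 0.79 more than Ugt1a (exact permutation, adjusted p = 0.0397 for both). Against Ugt2b15 the difference was 0.99 (exact permutation, adjusted p = 0.0595) and against Ugt2b10 0.81 (exact permutation, adjusted p = 0.111), and these did not pass. Ugt1a moved by 0.20 more than Ugt2b1, which did not pass either (exact permutation, adjusted p = 0.0529). With any 1 of the 10 arrays left out no pair passed, since 4 against 5 arrays allow fewer arrangements.

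**Figure D4:**
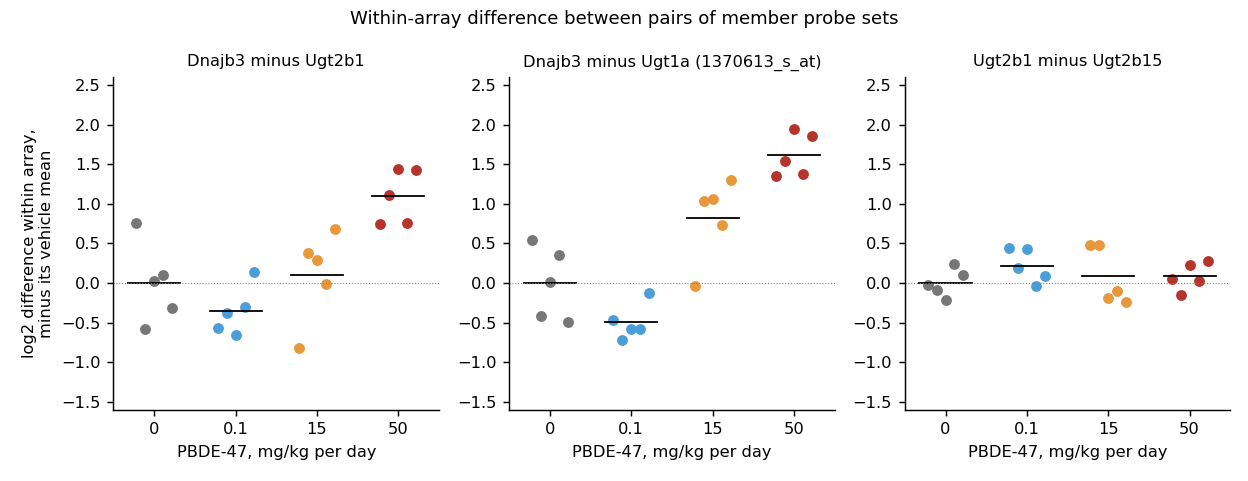
Difference in log2 value within each array for 3 pairs of member probe sets, minus the pair's vehicle mean, by dose of PBDE-47 in mg/kg; points are the 20 arrays and lines group means. At 50 mg/kg the mean difference from vehicle is 1.09 for Dnajb3 minus Ugt2b1, 1.61 for Dnajb3 minus Ugt1a and 0.09 for Ugt2b1 minus Ugt2b15.

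Of other genes of the pathway, the transporter of glucuronides into blood rose with the UGTs. Abcc3 (Mrp3), which exports glucuronides across the sinusoidal membrane, read between 7.78 and 8.82 with vehicle, between 9.35 and 9.90 at 15 and between 9.52 and 10.14 at 50 mg/kg, without overlap. Its change was 1.50 at 50 mg/kg (SE 0.17, 2.83-fold, limma adjusted p = 7.3e-05) and 1.24 at 15 mg/kg (limma adjusted p = 0.00255). It was the 1 called of 7 genes of glucuronide transport and cleavage at either dose. Slco1a4, an uptake carrier, changed by 0.58 (limma adjusted p = 0.18) and Abcc2 (Mrp2), the exporter into bile, by 0.43 (limma adjusted p = 0.261), and neither passed. Without the 10 arrays high in muscle or pancreas markers the Abcc3 changes were 1.46 at 50 and 1.19 at 15 mg/kg, and neither passed (limma adjusted p = 0.201 and 0.394). The median of the list was 0.20 at 50 mg/kg, beside 0.01 for all probe sets.

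Of 12 measured genes of UDP-glucuronate supply and of the ascorbate branch that draws on it (14 listed), Pgm2, of the phosphoglucomutase family, rose at 50 mg/kg, from a mean of 8.66 to 9.11 (0.45, SE 0.10, limma adjusted p = 0.0339), and none was called at 15 mg/kg. The Pgm2 call ended without any 1 of 7 arrays (vehicle replicates 1, 2 and 4, and 50 mg/kg replicates 1, 3, 4 and 5), with a highest limma adjusted p of 0.0929. It also ended with the replicate block, the leading digit block, only the 2 groups compared, no variance shrinkage and marker covariates (0.46, limma adjusted p = 0.053), and held in 5 of 11 other settings. Pgm1, of the same family, differed at 50 mg/kg by 0.001 on its brighter probe set (limma adjusted p = 0.998) and by -0.09 on the other (limma adjusted p = 0.839). The list's median was 0.01, the same as for all probe sets. Values that did not pass lay on both sides of 0, among them Miox at 0.34 (limma adjusted p = 0.12), Rgn at -0.38 (limma adjusted p = 0.143) and Gys2 at -0.45 (limma adjusted p = 0.139).

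None of 11 measured regulators of these enzymes (12 listed, among them Nr1i2, Nr1i3, Nfe2l2 and Ppara) was called at 50 or 15 mg/kg. The smallest p was that of Ahr, the aryl hydrocarbon receptor, with a change of 0.66 (limma adjusted p = 0.123) at 50 mg/kg and a slope over dose order that passed (limma adjusted p = 0.025). The other Ahr probe set, which is dimmer, gave 0.02 at 50 mg/kg (limma adjusted p = 0.962) and 0.29 at 15 mg/kg (limma adjusted p = 0.255). The brighter Ahr probe set had means of 6.15 with vehicle, 6.91 at 15 and 6.81 at 50 mg/kg. None of the 10 other Dnajb genes measured was called either. On their brightest probe sets the smallest p was that of Dnajb13, at 0.17 (limma adjusted p = 0.399), and a further probe set of Dnajb1 gave -0.22 (limma adjusted p = 0.397). Unadjusted limma p-values at 50 mg/kg were also counted, on the brightest probe set of each gene. They were under 0.05 for 3 of 11 regulators and 0 of 10 other Dnajb genes. Array-wide they were under 0.05 for 4041 of 31042 probe sets. Whether either list differs from all probe sets in this share was not tested. Ugt8, of a UGT family that joins galactose to ceramide, differed by -0.24 (limma adjusted p = 0.317) on its brighter probe set and by 0.11 (limma adjusted p = 0.474) on the other, both near background with vehicle means of 3.75 and 2.49.

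**Figure D5:**
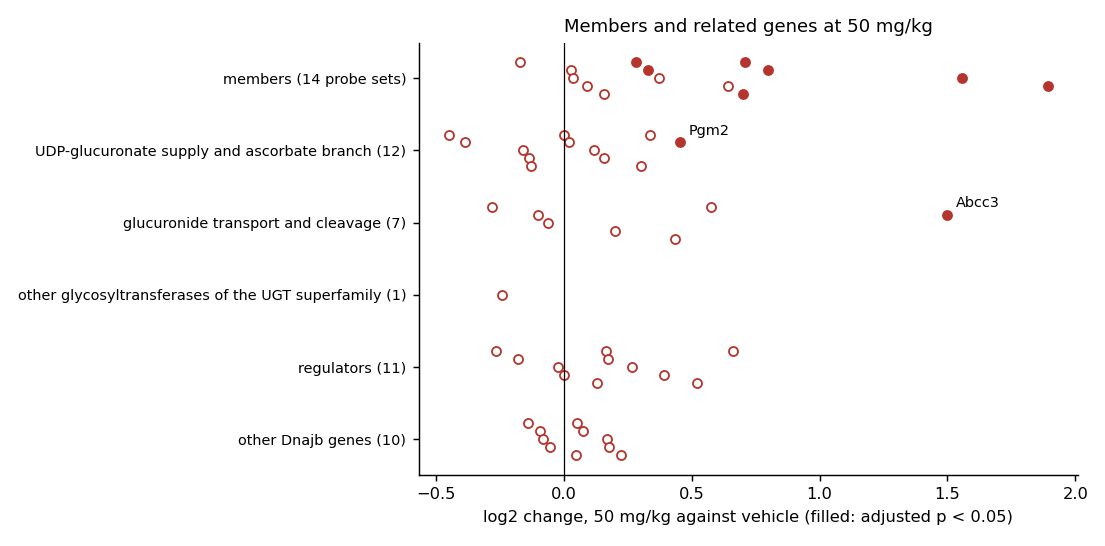
Change at 50 mg/kg against vehicle (log2, horizontal axis) of the 14 members and of related genes in 5 lists, one point per probe set; filled points passed the adjusted threshold in limma. Outside the members, the filled points are Abcc3 (1.50) and Pgm2 (0.45).

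Over the 20 arrays, the single-symbol probe sets most like Dnajb3 by Pearson's r were those of Ptdss2 (0.934), Pdk4 (0.92), Psmc5 (0.915), Cyp1a1 (0.907) and Cyp3a23-3a1 (0.902). For Ugt2b10 they were Cyp2c6v1 (0.938), Manba (0.914), Cyp2c11 (0.907), Cyp2c7 (0.899) and Ddc (0.898), and for Ugt2b1 they were Cyp2c6v1 (0.968), Cyp2c7 (0.948), Cyp1a1 (0.912), Manba (0.906) and Ephx1 (0.903). Each of these probe sets was itself called at 50 mg/kg, so the r values hold the difference between dose groups; Cyp names mark cytochrome P450 enzymes, which oxidise many of the compounds that UGTs then conjugate. In deviations from the group means the likest genes were others: Fam169a (0.765) led for Dnajb3, Copb2 (0.902) for Ugt2b10 and Relb (0.907) for Ugt2b1, and none of the 5 likest of each was called at 50 mg/kg. In those deviations Ugt2b10 gave r of 0.465 with Ugt2b1, 0.417 with Ugt2b15, 0.536 with Ugt2a1 and -0.281 with Dnajb3. The points are the same 20 arrays with the same normalization, and r is given as a description only.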

How the data were processed

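Liver RNA (100 ng, amplified for Affymetrix 3' arrays) of 4 groups of 5 arrays was measured, per the labels' protocols. The deposited log2 values were made by the authors with RMA, per the submitters' processing notes. The sources used here do not give its version or say if the 20 arrays were normalized jointly. The table holds 31099 probe sets; 57 controls were left out. A linear model with moderated variances and no covariates (limma 3.58.1, R 4.3.3) was fitted to all 20 arrays and 31042 probe sets, with 7 contrasts, each adjusted by Benjamini-Hochberg. The series' design names R/maanova, which was not used here. Symbols come from the platform annotation: 20826 probe sets carry 1 symbol, 436 several and 9780 none, and 20758 of the first matched RefSeq. Scripts were tested on simulated data. The number of arrays limits the precision.

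Members, lists and tests were chosen with earlier results of these data known. Every member is described, with values per array for members called against vehicle and for the shared Ugt1a probe sets. A related gene was read on its brightest probe set. From related lists, genes called against vehicle were named, with others of smallest p. By this rule up to 4 genes per list were named, and Pgm1 was given beside Pgm2. Likeness took the 5 probe sets with the highest r. Replicate numbers did not pair the arrays: deviations of same-numbered arrays had a median r of 0.001 (range -0.362 to 0.288). Alternatives were a replicate block, other normalizations, filters, variance models, array weights, marker covariates and left-out arrays.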

Additional observations from a re-analysis of the deposited data

Results flagged for a closer look

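With 5 arrays in each of 4 groups and 14 member probe sets, 56 groups of values were examined for an array far from the others, and 2 were found; chance gives about 1 in 20. On Ugt1a probe set 1370613_s_at, 50 mg/kg replicate 2 was lowest at 13.13, with the nearest other array of its group at 13.25. It was still above all vehicle arrays. On Ugt2b34l1 (1381852_at), vehicle replicate 4 was highest at 8.80, with the nearest other vehicle array at 8.17.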

How the results depend on the processing

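Without the 10 arrays high in muscle or pancreas markers, no member was called at 50 or 15 mg/kg (0 and 0), and probe sets called fell to 3 at 50, 3 at 15, 0 for 50 against 0.1, 0 for 15 against 0.1 mg/kg and 5 for the slope. In that fit 0.1 mg/kg keeps 1 array, which is assumed to vary like the others, and fewer arrays are tested. With only the 2 groups compared, 4 members were called at 50 mg/kg, and the array-wide counts were 89 at 50 mg/kg and 11 at 15 mg/kg. With muscle and pancreas covariates they were 16 at 15 mg/kg, 123 for 50 against 0.1 and 17 for 15 against 0.1 mg/kg. The cause of these moves was not tested. In the main setting the array-wide counts were 290 at 50 mg/kg, 36 at 15 mg/kg, 200 for 50 against 0.1, 28 for 15 against 0.1 mg/kg and 449 for the slope. With the replicate number as a block (replicate block), 7 members were called at 50 and 3 at 15 mg/kg, with 235 and 36 probe sets in all. The block ended the calls on Pgm2 at 50 mg/kg, on the slope of Ugt2b34l1 and on Ugt2b35 for 15 against 0.1 mg/kg; the numbers only name arrays, and 4 of 20 arrays correlated best with their own number.

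With one array left out, members called ranged from 4 to 8 at 50 mg/kg (4 without 50 mg/kg replicate 4), from 2 to 4 at 15 and from 0 to 0 at 0.1 mg/kg. Probe sets called ranged from 106 to 264 at 50, 14 to 44 at 15, 0 to 1 at 0.1, 0 to 0 for 50 against 15, 107 to 162 for 50 against 0.1, 19 to 29 for 15 against 0.1 mg/kg and 232 to 487 for the slope. Pairs that differed ranged from 6 to 7 from vehicle to 50 mg/kg, and from 0 to 0 from 15 to 50 mg/kg.

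Ugt2b34l1 at 50 mg/kg passed with quantile normalization again, a mean of at least 5, an intensity trend and array weights. Values near 0 changed sign under other settings, none of them called. From 15 to 50 mg/kg, without the arrays high in other tissues, Ugt2a1 gave -0.011, Ugt2b10 -0.092 and Ugt2b15 0.017; Ugt2b15 also gave 0.018 with the leading digit of the array description as a block and 0.011 with array weights. Ugt2b35 gave 0.0014 with quantile normalization again and 0.0031 with covariates. Ugt1a minus Ugt2b10 gave -0.094 with the other Ugt1a probe set. Ugt2b7 gave -0.029 at 50 mg/kg and 0.045 at 0.1 mg/kg without the arrays high in other tissues, and 0.019 at 0.1 mg/kg with array weights. Ugt2b probe set 1385247_at gave 0.028 at 0.1 mg/kg with covariates. With one array left out, the following ranges crossed 0. At 0.1 mg/kg they were -0.16 to 0.023 for Ugp2, -0.053 to 0.017 for Ugt1a 1370613_s_at, -0.13 to 0.030 for Ugt2a1, -0.064 to 0.048 for Ugt2b 1385247_at, -0.057 to 0.013 for Ugt2b35 and -0.055 to 0.017 for Ugt2b7. At 15 mg/kg they were -0.10 to 0.024 for Ugdh and -0.0071 to 0.10 for Ugt2b 1385247_at. At 50 mg/kg they were -0.030 to 0.082 for Ugt2b 1385247_at and -0.013 to 0.071 for Ugt2b7. From 15 to 50 mg/kg they were -0.054 to 0.15 for Ugt2b 1387825_at, -0.062 to 0.015 for Ugt2b1, -0.14 to 0.051 for Ugt2b15 and -0.062 to 0.025 for Ugt2b35, and for pairs -0.057 to 0.14 for Ugt1a minus Ugt2b10 and -0.081 to 0.099 for Ugt2b1 minus Ugt2b15.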
